A study of Homo sapiens with 6 samples.

Results

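TPT1 and 9 genes of the protein synthesis machinery (EEF1A1, EEF1B2, EEF1D, EEF1G, EEF2, PABPC1, NACA, BTF3 and RACK1) were followed in a human podocyte line, and 9 of these 10 genes had a row among the 20745 genes of the deposited table. The rows were selected by gene symbol. The list of symbols was chosen from genes of protein synthesis, grouped as TOP mRNAs (described below), with results of the study's levamisole comparison in view. No value of that comparison is used here. EEF1G was the gene with no row.

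Conditionally immortalized human podocytes of the line AB 8/13, kidney epithelial cells that grow at 33 °C and stop dividing and mature at 37 °C, were sequenced to ask how levamisole acts on podocytes. Levamisole is an anthelmintic drug that is also given in childhood nephrotic syndrome. There were 3 vehicle samples and 3 samples given 1 µM levamisole for 24 h, all from 1 cell line after 7 to 10 days at 37 °C, and the study's methods give different passages as the replicates. The treatment protocol in the labels gives 24 h in serum-free medium for both groups, whereas the study's methods give complete medium for the vehicle. The libraries were made with an adapted CEL-seq protocol, which reads the 3′ ends of polyadenylated RNA.

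The deposited table holds 1 value per gene that is not part of the comparison, the base mean, which is the authors' mean of normalized read counts over the libraries of their fit. Values per sample were not analysed here. The levels below therefore describe vehicle and levamisole cells pooled together, carry no replicate error, and allow no statement on an effect of levamisole. No difference between genes could be tested, so no 2 neighbours in any order of levels can be said to differ beyond their spread. The depth per library is unknown. Fewer cells of a type and less RNA per cell cannot be told apart in bulk RNA.

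Of the podocyte markers looked at, 8 had a base mean of at least 5, with the highest values at ACTN4 (14320), CD2AP (929) and KIRREL1 (253). NPHS1, which encodes the slit diaphragm protein nephrin and is a defining marker of mature podocytes, had no row. Of 13 markers of endothelial, tubular, immune and mesangial cells, 7 had a row and 1 had a base mean of at least 5, AQP1 at 243; PDGFRB was next at 4.14 and CD14 at 2.40, and PECAM1, KDR, LRP2, UMOD, CD3E and DES had no row.

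Most of the genes studied here are known as 5′TOP genes. Their mRNAs begin with a C followed by an unbroken run of pyrimidines, and this terminal oligopyrimidine tract lets the cell switch their translation together with that of the ribosomal proteins: mTORC1 signalling keeps them on polysomes, and the RNA-binding protein LARP1 holds them back when mTORC1 is inactive. The elongation factors eEF1A and eEF2 deliver aminoacyl-tRNA and move the ribosome along, the poly(A)-binding protein PABPC1 joins the mRNA's tail to initiation, NACA and BTF3 form the nascent polypeptide-associated complex at the ribosome's exit, and RACK1 is a scaffold on the small subunit. TPT1, also known as TCTP, is an abundant growth-related protein and a classic TOP mRNA.

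The start sequences are shown because the tract at the start is what places these genes in 1 class. Each window runs from 30 bases before the annotated start to 20 bases from it, on the gene's strand, from RefSeq on GRCh38.p14, and capitals mark the run of C and T that opens with a C at the start itself. EEF1B2 has 2 annotated starts there, and the downstream one is shown. The upstream one, at base 206159609, opens with no such run. PABPC1 and EEF1D are named only.
TPT1 (chr13:45341164-45341213, minus strand): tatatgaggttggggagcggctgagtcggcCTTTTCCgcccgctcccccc
EEF1A1 (chr6:73521013-73521062, minus strand): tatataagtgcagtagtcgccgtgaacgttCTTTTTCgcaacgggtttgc
EEF1B2 (chr2:206159865-206159914, plus strand): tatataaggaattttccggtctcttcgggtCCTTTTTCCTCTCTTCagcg
EEF1G (chr11:62573872-62573921, minus strand): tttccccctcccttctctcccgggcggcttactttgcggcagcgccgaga
EEF2 (chr19:3985444-3985493, minus strand): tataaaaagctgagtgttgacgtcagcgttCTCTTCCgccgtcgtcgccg
NACA (chr12:56725280-56725329, minus strand): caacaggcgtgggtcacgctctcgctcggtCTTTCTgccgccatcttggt
BTF3 (chr5:73498412-73498461, plus strand): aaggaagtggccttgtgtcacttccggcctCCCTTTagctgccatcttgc
RACK1 (chr5:181243887-181243936, minus strand): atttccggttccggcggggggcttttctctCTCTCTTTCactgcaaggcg

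A start was taken as TOP-like when the first base was C and at least 4 C or T followed it without a break. Of the 8 genes with a start in the RefSeq set, 7 had such a start, or 87.5%, beside 5.14% of all 27305 genes, 6.24% of 15843 protein-coding genes and 74.2% of 62 cytosolic ribosomal protein genes. The runs were 6 to 16 bases long, the longest at EEF1B2 and the next at RACK1 with 9. EEF1B2 was counted by its downstream start, since its upstream start was not TOP-like. EEF1G was the exception: its annotated start is an A, and no TOP-like run began within 10 bases on either side of that start. The initiation factors had TOP-like starts in 8 of 25 genes (32.0%). Of 9 other elongation and termination genes, 0 had one. The members were grouped beforehand as known TOP mRNAs, so their high share follows from that choice and is no finding about translation genes. These counts describe reference sequence, and no test was run on them.

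The GENCODE 44 canonical transcripts, which cover all 10 genes, gave 9 with a TOP-like start, a second source chosen after the RefSeq starts were seen. PABPC1 opened with a run of 12 pyrimidines and EEF1D with 9 in that annotation, and EEF1G was again the one without. A TATAA, searched on the gene's strand only and between 40 and 21 bases before the start, stood upstream of EEF1A1, EEF1B2 and EEF2. That is 3 of 8 genes (37.5%), beside 4.78% of all genes with a start and 11.3% of the ribosomal protein genes. EEF1B2 was counted by its downstream start, and its upstream start had no TATAA there. The motif was chosen for this search after the sequences were read. TPT1 carries TATATGA at the same distance, which is not a TATAA. A match in these windows is a description of the reference sequence and not of a site in use in these cells.

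**Figure D1:**
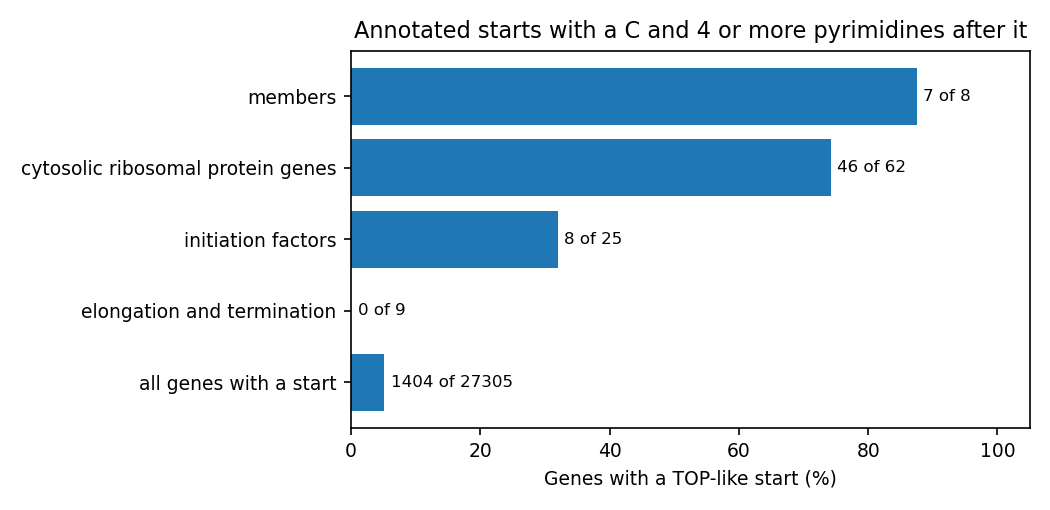
Share of genes (%) whose annotated RefSeq start is TOP-like, by gene set, with the number of genes beside each bar. The members, 7 of 8, and the cytosolic ribosomal protein genes, 46 of 62, stand above the set of all genes, 1404 of 27305. The members were grouped as TOP mRNAs beforehand.

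The 9 genes with a row had a summed base mean of 24152, which was 0.381% of the sum over all genes. PABPC1, TPT1 and EEF2 together held 73.4% of it. The 9 genes all lay above the median of the table, which was 21.8 as deposited and 5.53 per kb of annotated exon for the 20599 genes with a length. Between genes, levels are compared below per kb of all annotated exons of the gene. CEL-seq gives about 1 read position per molecule whatever the length of the RNA. Division by length therefore lowers genes with long annotated exons, such as EEF1A1 with 10063 bases beside EEF2 with 4021. The values as deposited suit this library type better and are given beside those per kb. Fold differences and orders that hold only per kb may reflect annotated length.

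TPT1 (ENSG00000133112, chromosome 13, 45333471 to 45341284, minus strand, 6 exons in its canonical transcript) had a base mean of 5841, or 813 per kb. Only 183 of the 20599 genes, 0.888%, stood above it per kb, and 70 of 20745 as deposited. Its antisense neighbour TPT1-AS1 had a base mean of 29.2, so TPT1 stood 200-fold higher as deposited. HTSeq-count takes account of strand under its default settings, which the study's methods name.

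Among the elongation factors, EEF2 (ENSG00000167658, chromosome 19, 3976056 to 3985463, minus strand, 15 exons), the translocase, had a base mean of 5808. It was the highest of the 9 genes per kb, at 1444, and 103 genes stood above it per kb and 72 as deposited. EEF1A1 (ENSG00000156508, chromosome 6, 73489308 to 73525587, minus strand, 8 exons), which carries aminoacyl-tRNA to the ribosome and is usually among the most abundant mRNAs of a cell, had a base mean of 1451. Per kb it was 144, and 1240 genes, 6.02%, stood above it. As deposited 471 genes, 2.27%, did, and by canonical length 758. EEF2 thus stood 10.0-fold above EEF1A1 per kb, 4.45-fold per kb of the canonical transcript and 4.003-fold as deposited. TPT1 stood 5.64-fold above EEF1A1 per kb and 4.03-fold as deposited.

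EEF1B2, EEF1D and EEF1G encode the beta, delta and gamma subunits of the factor that reloads eEF1A with GTP. EEF1B2 (ENSG00000114942, chromosome 2, 206159585 to 206162928, plus strand, 6 exons) had the lowest base mean of the 9 genes, 227, with 118 per kb. EEF1D (ENSG00000104529, chromosome 8, 143579697 to 143599541, minus strand, 10 exons) had a base mean of 331 and the lowest value per kb, 35.3. Which of both is lower turns with the scale: EEF1B2 was 3.35-fold above EEF1D per kb of all exons and 0.684 of it as deposited. EEF1A1 stood 6.41-fold above EEF1B2 as deposited and 1.47-fold per kb of the canonical transcript.

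EEF1G (ENSG00000254772, chromosome 11, 62559596 to 62574086, minus strand, 10 exons) had no row, although its partner subunits were measured. In GENCODE 44, exons of a readthrough gene on the same strand (ENSG00000255508) cover 99.5% of its canonical transcript and 98.6% of the last 500 bases, and that gene had no row either. HTSeq-count by default leaves a read that lies on exons of more than 1 gene uncounted. Over the genome, 721 protein-coding genes had 95% or more of their canonical transcript under same-strand exons of other genes, and 97 of them, 13.5%, had a row. Of 17057 protein-coding genes with none of it covered, 74.4% had a row. This overlap was searched after the missing row was seen, with a later annotation than the authors', and its part in the missing row was not tested. The row's absence is therefore no measurement of EEF1G as low. Of its pseudogenes, EEF1GP5 had a base mean of 9.62.

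PABPC1 (ENSG00000070756, chromosome 8, 100685816 to 100722809, minus strand, 15 exons) had the highest base mean of the 9 genes, 6074, and 636 per kb. Above it stood 242 genes per kb and 66 as deposited. Its paralog PABPC4 had a base mean of 454 and 44.2 per kb, so PABPC1 stood 14.4-fold above it per kb and 13.4-fold as deposited. PABPC1L had a base mean of 142, and PABPC1 stood 22.6-fold above it per kb and 42.7-fold as deposited.

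Of the nascent chain complex, NACA (ENSG00000196531, chromosome 12, 56712305 to 56731628, minus strand, 9 exons), the alpha subunit, had a base mean of 558 and 49.6 per kb. BTF3 (ENSG00000145741, chromosome 5, 73498408 to 73505667, plus strand, 6 exons), the beta subunit, had 1237 and 222. The BTF3 value was 4.47-fold above that of NACA per kb and 2.22-fold as deposited. All annotated exons came to 11267 bases for NACA and 5584 for BTF3. These are RNA levels and give no ratio of the protein partners. The canonical NACA transcript, of 6387 bases, is the long form, and against canonical lengths the ratio was 11.1. BTF3L4, the close relative of BTF3, had a base mean of 656, which was the highest of the 10 paralogs looked at. BTF3 stood 2.01-fold above it per kb, 1.89-fold as deposited and 6.70-fold by canonical length. EEF1A1 stood 37.8-fold above its tissue-restricted paralog EEF1A2 per kb and 78.7-fold as deposited, with EEF1A2 at a base mean of 18.4.

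RACK1 (ENSG00000204628, chromosome 5, 181236897 to 181248096, minus strand, 8 exons) had a base mean of 2624 and 457 per kb. Above it stood 344 genes, 1.67%, per kb and 210, 1.01%, as deposited. Counted per kb of the canonical transcript, 1140 bases long, it was the highest of the 9 genes at 2301.

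**Figure D2:**
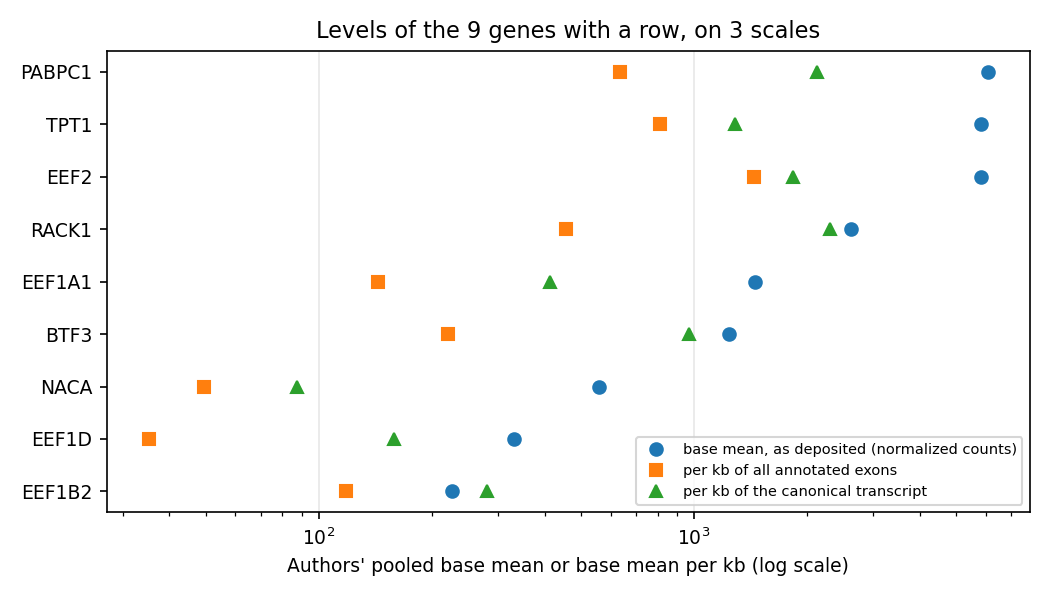
The authors' pooled base mean of each of the 9 genes with a row, as deposited and divided by 2 lengths (log axis, 1 point per gene and scale, no error since the value is pooled). PABPC1, TPT1 and EEF2 lie together at 5808 to 6074 as deposited, and EEF1D and NACA are the lowest per kb on both lengths.

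The 9 genes spanned 26.8-fold as deposited, from EEF1B2 to PABPC1, and 40.9-fold per kb, from EEF1D to EEF2. As deposited, 6 of them were within the highest 5% of the table, and per kb 5 of them were (EEF2, TPT1, PABPC1, RACK1 and BTF3).

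**Figure D3:**
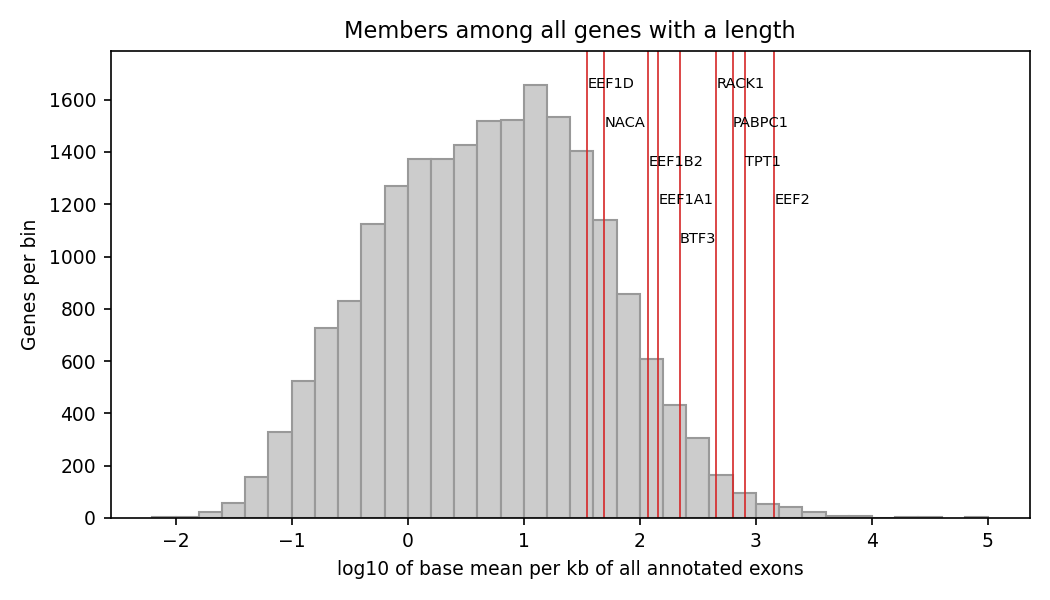
Number of genes in each bin of the log10 base mean per kb of all annotated exons, over 20599 genes, with a line at each of the 9 genes with a row. All 9 lines lie right of the median, 5.53 per kb, from EEF1D at 35.3 to EEF2 at 1444.

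Other translation genes gave the setting. All 31 initiation genes had a row, with a median base mean of 337 and 72.6 per kb, beside 1451 and 222 for the 9 genes. The highest were EIF4B (3450), a helicase cofactor, EIF4G2 (3071) and EIF3B (2720). As deposited, 0 of the 31 stood above EEF2, and 22 stood above EEF1B2. Per kb, 1 of the 31 stood above TPT1, EIF6 at 830, named after its value was seen. The 10 other elongation and termination genes had a median base mean of 210 and 49.0 per kb, led by EIF5A (2947), GSPT1 (1407) and ETF1 (462). EIF5A, which helps the ribosome past difficult peptide bonds, was at 1097 per kb, between EEF2 and TPT1. Of the other known TOP mRNAs, EIF4B and NAP1L1 (1253, or 73.5 per kb) were among the highest.

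The listed regulators of TOP mRNAs and of mTORC1 signalling all had a row, 14 of 14, with a median base mean of 119. LARP1, the repressor that binds the TOP tract, was the highest at 2442 and 200 per kb, followed by EIF4EBP2 (1368) and PDCD4 (302). These lists overlap, EIF4B among them, and each count describes its own list. Over the 12212 genes that had both a row and a RefSeq start, the median base mean was 104 for the 841 genes with a TOP-like start and 60.3 for the 11371 without; genes are not independent replicates and no test was run.

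Several of these genes have many processed copies in the genome, from which reads cannot be told apart when they match exactly. HTSeq-count by default leaves out reads that map to several places, so those reads add nothing to a gene's level. Each canonical transcript was therefore cut into overlapping words of 60 bases, the length of the study's second read, and each word was looked up in GRCh38 outside the gene's own span. This search was added after the levels were seen. Of EEF1G 66.3% of the words were also found elsewhere, of EEF1B2 62.6% and of EEF1A1 45.7%. The values were 13.9% for BTF3, 10.2% for PABPC1, 3.05% for EEF1D, 1.85% for NACA and 0.91% for TPT1. These shares depend on the length of the canonical transcript. All 117 shared words of NACA, out of 6328, lay in its last 500 bases, and 6.74% of the coding words of TPT1 were shared. For EEF2 and RACK1 not 1 word was found elsewhere, and these 2 genes also had 0 pseudogene rows in the table. More than 10% of words were shared by 5 of the 10 members and by 16 of 55 other translation genes and paralogs.

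Within the coding sequence of EEF1A1, 91.8% of words occurred elsewhere, and after its stop codon 11.7%. Copies lay in EEF1A1P5 (31.6% of all its words), within the span of STEAP1B (34.1%) and in EEF1A1P6 (27.2%). The first of its coding words with the most other places is shown as an example, bases 1316 to 1375 of the coding sequence (GENCODE 44, GRCh38, chromosome 6, minus strand), found whole in 7 other places.
EEF1A1 coding word: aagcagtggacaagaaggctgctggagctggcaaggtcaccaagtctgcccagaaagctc
Since the libraries read 3′ ends, the last 500 bases bear most on the counts. There 0% of the words of the canonical EEF1A1 transcript were shared, but the value ran from 0 to 100% over its 14 coding transcripts, which end at different places. For EEF1B2 it was 84.8% and ran from 39.0 to 84.8% over 4 transcripts. For NACA it was 26.5% (0 to 26.5% over 17 transcripts) and for BTF3 24.9% (0 to 27.4% over 5). For TPT1 it was 0% (0 to 8.84% over 9). For EEF1D it was 11.6% (0 to 11.6% over 40), and for EEF1G, with 1 coding transcript, 71.7%. In PABPC1, 11.6% of the words of this stretch were shared (0 to 19.05% over 22 transcripts) and a microRNA gene, MIR7705, covered 11.4% of its bases. The part of shared sequence in these levels was not tested.

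**Figure D4:**
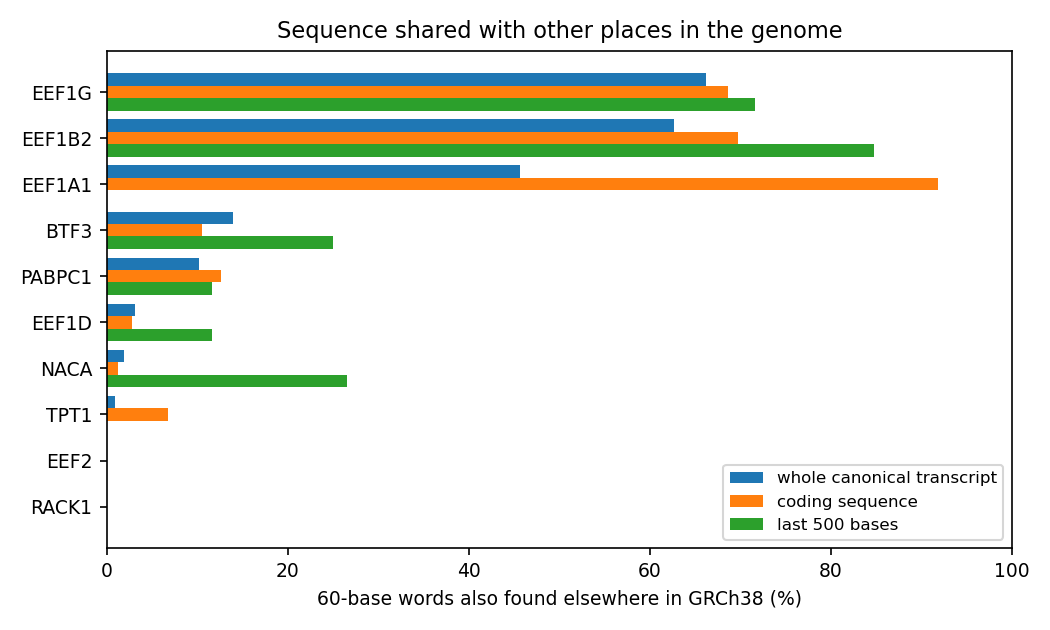
Percent of overlapping 60-base words of each member's canonical transcript that were found at another place in GRCh38, for the whole transcript, the coding sequence and the last 500 bases. EEF1G, EEF1B2 and EEF1A1 have the longest bars, the last-500 value of EEF1A1 and TPT1 is 0, and EEF2 and RACK1 have none.

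The table itself held 45 rows of pseudogenes named after 8 of the 10 members, with a summed base mean of 79.2 and 4 rows of at least 5. EEF1A1 had 21 of these rows, the highest of them EEF1A1P5 at 4.57, and they came to 2.19% of its family's sum. The share was 2.77% for EEF1B2, where EEF1B2P3 stood at 6.11, and 1.03% for EEF1D. It was 0.0725% for TPT1, 0.207% for PABPC1 (PABPC1P3 at 6.01), 0.498% for BTF3 and 0.662% for NACA. For NACA the share rose to 3.52% when pseudogenes were taken by gene type, through NACA3P at 12.4 and NACA4P at 4.19. Reads of a member and of a copy cannot be told apart where the sequences match exactly, so these small values are uncertain in both directions.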

How the data were processed

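Per the labels and the study's methods, reads were trimmed with Trim Galore 0.4.5, mapped to GRCh38 with STAR 2.7.5a, counted with HTSeq-count 0.11.0 at default parameters on an Ensembl annotation and normalized with DESeq2 1.22.0. The authors deposited 1 table of 20745 genes. Its base mean is a signal, the mean normalized count over the libraries of the authors' fit, pooled with no value per sample. The other 5 numeric columns hold the authors' comparison (log2 fold change, its error, statistic, p-value and adjusted p-value) and were not used. Levamisole against vehicle, planned for the case of counts per sample, is therefore not analysed here.

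Base means were divided by the length of all GENCODE 44 exons or of the canonical transcript; 20599 of 20745 identifiers matched. Starts came from RefSeq (GRCh38.p14), where gene sets counted a gene once, by any of its starts. Words of 60 bases were searched exactly on both strands of 25 chromosomes. Start and word searches were tested on simulated sequence. Python 3.11.15, pandas 2.3.3 and matplotlib 3.10.9 were used. Named are all members, their highest pseudogene of at least 5, and the 3 highest and all missing genes of each list; other names were added after values were seen. Results for some listed genes are not reported here. The members and lists were chosen with earlier results of these data known. Alternatives were other lengths, gene filters, pseudogene definitions and start rules.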

Additional observations from a re-analysis of the deposited data

How the results depend on the processing

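The share of summed base means on the 9 genes was 0.381% and rose to 0.584% without mitochondrially encoded genes, which held 34.8% of the sum. It was 0.381% with genes of a base mean of at least 5, and 0.382% with pseudogene rows added. The median number of genes above a member was 818 per kb, 471 as deposited and 298 by canonical length; it was 786 among protein-coding genes and 818 among genes of at least 5. Pseudogene rows came to 0.285% of the pooled families, 0.0739% with rows of at least 5, and 0.354% by gene type. A TOP-like start was found in 7 of 8 members and 5.14% of all genes. Within 10 bases it was found in 7 members, but in 38.4% of all genes. With at least 7 pyrimidines after the C it was found in 2 members and 1.85% of all genes. GENCODE 44 starts gave 9 of 10 members. For single genes, the number of genes above moved by over 1.5 times in 7 of 9 as deposited.

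No paired analysis was possible because the table holds no values per sample, and leaving out replicates or refitting could not be done for the same reason. The number of libraries behind the base mean could not be read from the table: all 6376 base means under 3 were distinct. Depth limits what the levels show, since 7409 genes lay under a base mean of 5.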
